A study of Mus musculus with 9 samples.

Results

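The histone deacetylases of class I (Hdac1, Hdac2, Hdac3 and Hdac8), class IIb (Hdac6 and Hdac10) and class IV (Hdac11) were examined as 7 genes, taken by name from a table of 35288 genes. All 7 were listed. T15 is a murine cell line of Smarcb1-negative peripheral T-cell lymphoma, a tumour that arises in mice in which Cre under the Cd4 promoter deletes Smarcb1, a subunit of the SWI/SNF chromatin remodelling complex. RNA-seq was performed on 9 T15 libraries in 3 groups of 3 biological replicates. The SAHA group received SAHA (vorinostat) at 1 µM, added 2 times within 72 h. The paper reports strong apoptosis of T15 cells at this concentration, with most cells dead. For re-expression it reports slower growth, with viability and cell cycle not affected. The share of dying cells in the sequenced samples is not stated, and its part in the values was not tested. The Smarcb1-RE group carried a lentiviral, Doxycyclin-inducible Smarcb1 plasmid (pInd20), was selected with G418 and induced with 0.5 µg/µl Doxycyclin for 72 h, and it is not stated whether its 3 libraries came from 1 clone. The labels name both a vehicle and a control plasmid without saying which the 3 control libraries received, and the study's text calls these cells untreated, so transduction, G418 and Doxycyclin cannot be told apart from Smarcb1 itself in any comparison of Smarcb1-RE cells.

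Histone deacetylases remove acetyl groups from lysines. Class I, II and IV enzymes need zinc, and hydroxamates such as SAHA bind that zinc in the active site. Hdac1, Hdac2 and Hdac3 are the catalytic subunits of large nuclear corepressor complexes, Hdac8 works outside them and deacetylates the cohesin subunit Smc3, Hdac6 is a cytoplasmic tubulin deacetylase that also binds ubiquitin, Hdac10 deacetylates polyamines, and Hdac11 removes long fatty acyl groups from lysines. SAHA inhibits the enzymes and not their transcripts, and the values below are transcript levels, which do not give enzyme activity.

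The comparisons ask how the targets of a pan-deacetylase inhibitor are themselves transcribed when the inhibitor is present or when the missing Smarcb1 is restored. Library totals lay between 20900424 and 24941408 counts. The Smarcb1 count itself was 2, 5 and 8 in the controls, 7, 13 and 3 under SAHA, and 151, 147 and 142 after re-expression. Control replicate 1 stood apart from its group, with a chi-square per gene of 13.4 and 15.0 against the other controls, where other pairs of replicates gave 2.12 to 4.69. Without it the members kept their direction and call in both comparisons with control, except for Hdac8 and Hdac10 as given below. Of 14 T-cell markers, 11 exceeded a level of 1 CPM, counts scaled to library size, in every library, while Cd2, Cd4 and Cd5 lay at or under 3 counts throughout. The summed level of 5 B-cell markers was 0.936 to 1.14 CPM in control, 1.24 to 1.86 in SAHA and 7.25 to 7.97 in Smarcb1-RE libraries. Within that list Ms4a1 and Pax5 carried the rise, to means of 3.51 and 3.89 CPM. The sum of 3 fibroblast markers was 0.0823 to 0.423 CPM in control, 0.823 to 1.12 under SAHA and 0.474 to 0.531 after re-expression. Col1a1 had means of 0.0846 CPM in control, 0.899 under SAHA and 0.477 after re-expression. Col1a2 went the other way, at 0.113, 0.0432 and 0.029 CPM in the same order, and Pdgfrb was at 0 in treated cells. The sum of 6 myeloid markers was 0.634 to 0.765 CPM in control and at most 0.345 in treated libraries. The part of these markers in the results was not tested.

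The deacetylases moved in both directions under each treatment (edgeR quasi-likelihood test, 13697 genes tested, Benjamini-Hochberg adjustment over all of them). In SAHA-treated cells Hdac1 and Hdac6 rose, Hdac2, Hdac3 and Hdac10 fell, and Hdac8 and Hdac11 did not pass the test. In Smarcb1-RE cells Hdac6, Hdac8 and Hdac11 rose, Hdac1, Hdac2 and Hdac3 fell, and Hdac10 did not pass. Thus 2 of 7 were higher and 3 lower with SAHA, where 32.6% of all tested genes were higher and 34.3% lower. With Smarcb1 3 of 7 were higher and 3 lower, beside 39.2% and 38.6% of all genes. Both comparisons share the control libraries. The direct comparison of Smarcb1-RE with SAHA cells gave 3 higher and 3 lower members, beside 37.7% and 36.8% of all genes. The members' counts lay near these background shares and are not a result about the family, so the account below rests on the single genes. All 7 passed the filter on low counts, Hdac11 only because of its level in Smarcb1-RE libraries. The median log2 fold change of the members was 0.07 with SAHA, 0.07 with Smarcb1 and -0.10 between the treated groups, against 0.00, 0.01 and 0.02 over all tested genes. All changes are relative to TMM scaling. With library totals alone as the scale, the median of all genes with Smarcb1 was 0.17, Hdac10 passed the test as higher with Smarcb1 (0.23), Hdac6 no longer differed between the treated groups (-0.06) and the difference of Hdac3 between them changed sign, uncalled (0.056).

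**Figure D1:**
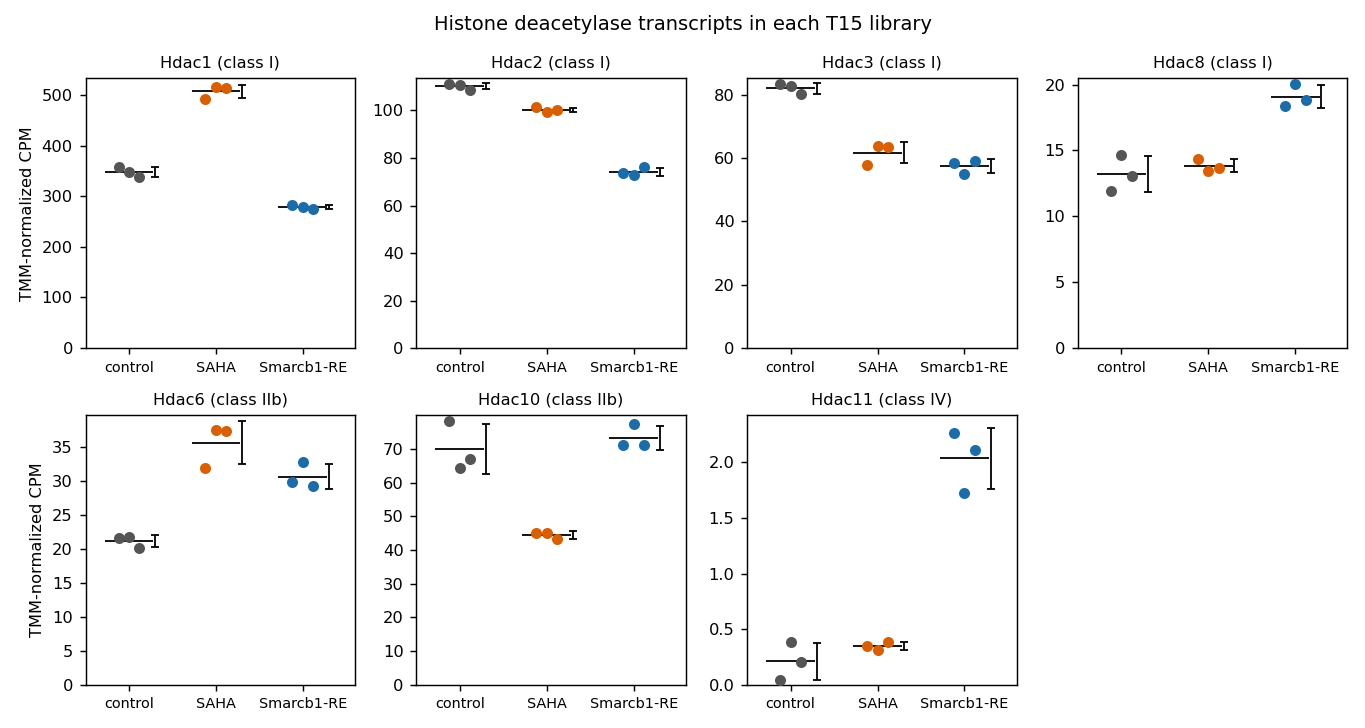
Level of each of the 7 deacetylase transcripts in the 9 libraries, as TMM-normalized CPM on linear axes that start at 0. Points are libraries, horizontal lines are group means, and error bars to the right of the points show the SD (n = 3). Hdac1 is highest in SAHA and lowest in Smarcb1-RE libraries, and Hdac11 is near 0 outside the Smarcb1-RE group.

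Hdac1 (ENSMUSG00000028800, GRCm38 chr4:129516104-129542713, minus strand) had the highest level of the 7 genes examined and moved in opposite directions under the treatments. Its normalized level was 357.1, 348.4 and 338.1 CPM in control, 492.8, 516.5 and 513.2 CPM in SAHA and 282.9, 278.2 and 274.6 CPM in Smarcb1-RE libraries. The 3 groups did not overlap. The log2 fold change was 0.54 with SAHA (SE 0.04, adjusted p = 8.93e-08), a 1.46-fold higher level. With Smarcb1 it was -0.32 (SE 0.04, adjusted p = 6.1e-06), and -0.16 (adjusted p = 0.00132) with library totals alone as the scale. The direct comparison of Smarcb1-RE with SAHA cells gave -0.87 (SE 0.04, adjusted p = 6.63e-10). Hdac1 went against its chromosome in Smarcb1-RE cells: 674 well expressed coding genes of chromosome 4 had a median log2 fold change of 0.29, and 10051 such genes elsewhere had -0.10.

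Hdac2 (ENSMUSG00000019777, chr10:36974544-37001889, plus strand), the closest paralog of Hdac1 and its partner in the same complexes, fell in both treatments. Its level was 111.2, 110.8 and 108.7 CPM in control, 101.3, 99.4 and 100.2 CPM in SAHA and 73.9, 72.7 and 76.1 CPM in Smarcb1-RE libraries. The groups did not overlap, although the change with SAHA was small. It amounted to -0.14 on the log2 scale (SE 0.04, adjusted p = 0.00514). With Smarcb1 it was -0.57 (SE 0.04, adjusted p = 1.76e-08), and the treated groups differed by -0.43 (SE 0.04, adjusted p = 2.8e-07).

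Since Hdac1 and Hdac2 fill the same place in their complexes, their ratio was computed within each library from the levels per kilobase of exon. It was 4.17, 4.08 and 4.04 in the controls, 6.32, 6.75 and 6.65 under SAHA, and 4.98, 4.97 and 4.69 after re-expression. The ratio was thus higher in every treated library than in every control library, and higher with SAHA than with Smarcb1. The mean ratio was 4.10 ± 0.067 in control, 6.57 ± 0.227 in SAHA and 4.88 ± 0.165 in Smarcb1-RE cells (SD, n = 3). A two-sided exact permutation test of the log2 ratio gave p = 0.1 in each of the 3 comparisons, the smallest value that 3 against 3 libraries allow. The ratio rose with SAHA beside a higher Hdac1 level, and with Smarcb1 beside a lower level of both genes.

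The coding sequences of Hdac1 (1446 bases) and Hdac2 (1464 bases) matched at 75.8% of 1443 aligned bases in the GENCODE M21 transcripts. Their longest identical run is shown for what a short read could share between these coding sequences, and untranslated parts were not compared. It began at base 241 of the Hdac1 and base 244 of the Hdac2 coding sequence:
Hdac1 and Hdac2 shared run: ccagataatatgtctga
This run has 17 bases, and the longest run shared by the coding sequences of any pair of the 7 members has 23. Processed copies of Hdac1 are closer. The pseudogene Gm10093 on chromosome 17 aligned at 99.38% over 1444 bases and shares an identical run of 450 bases with the Hdac1 coding sequence, and Gm4864 on chromosome 12 aligned at 94.55% over 1469 bases. Gm21834 was listed at 0 in every library. A further processed copy, at 96.28% over 1450 bases, was not analysed here. The copies analysed together held between 0.0511% and 0.417% of the Hdac1 count in a library, and Hdac1 values are uncertain by the way the authors' counting divided such reads.

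Hdac3 (ENSMUSG00000024454, chr18:37935844-37955016, minus strand), the catalytic subunit of the NCoR/SMRT corepressors, fell in both treatments to levels that could not be separated. It measured 83.3, 82.7 and 80.1 CPM in control, 58.0, 63.7 and 63.4 CPM in SAHA and 58.5, 54.9 and 58.9 CPM in Smarcb1-RE libraries. Every treated library was below every control library, while the treated groups overlapped. The log2 fold change was -0.41 with SAHA (SE 0.05, adjusted p = 7.91e-06) and -0.51 with Smarcb1 (SE 0.05, adjusted p = 6e-07). The difference between the treatments was -0.10 (95% confidence interval -0.21 to 0.00, adjusted p = 0.0746). Without SAHA replicate 1, the lowest of its group, this difference passed the test at -0.16 (adjusted p = 0.00944).

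Hdac8 (ENSMUSG00000067567, chrX:102284639-102505359, minus strand) was the class I gene that rose with Smarcb1. Its level was 11.9, 14.7 and 13.0 CPM in control, 14.4, 13.4 and 13.7 CPM in SAHA and 18.4, 20.1 and 18.8 CPM in Smarcb1-RE libraries. SAHA and control libraries overlapped and Smarcb1-RE libraries lay above both. The log2 fold change with Smarcb1 was 0.53 (SE 0.08, adjusted p = 4.3e-05), and Smarcb1-RE exceeded SAHA cells by 0.46 (SE 0.08, adjusted p = 0.000149). With SAHA it was 0.07 (95% confidence interval -0.11 to 0.24, adjusted p = 0.481), and it was -0.0028 without control replicate 1.

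Hdac6 (ENSMUSG00000031161, chrX:7930120-7947889, minus strand) was the member that rose in both treatments. It measured 21.5, 21.8 and 20.2 CPM in control, 31.9, 37.4 and 37.3 CPM in SAHA and 29.8, 32.7 and 29.2 CPM in Smarcb1-RE libraries. All treated libraries exceeded all controls. The log2 fold change was 0.75 with SAHA (SE 0.07, adjusted p = 1.32e-06), a 1.68-fold higher level, and 0.53 with Smarcb1 (SE 0.07, adjusted p = 1.96e-05). Smarcb1-RE cells were lower than SAHA cells by -0.22 on the log2 scale (SE 0.07, adjusted p = 0.0122), with overlapping libraries. That difference missed the test without SAHA replicate 3 (adjusted p = 0.0514) and without Smarcb1-RE replicate 3 (adjusted p = 0.0576). Hdac6 and Hdac8 both lie on the X chromosome, whose 358 well expressed coding genes had a median log2 fold change of 0.12 with SAHA and 0.01 with Smarcb1.

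Hdac10 (ENSMUSG00000062906, chr15:89123307-89128700, minus strand), the other class IIb gene, fell with SAHA. Its level was 78.2, 64.2 and 67.1 CPM in control, 45.0, 45.2 and 43.2 CPM in SAHA and 71.2, 77.4 and 71.0 CPM in Smarcb1-RE libraries. SAHA libraries lay below all others, and Smarcb1-RE and control libraries overlapped because control replicate 1 was high. The log2 fold change with SAHA was -0.65 (SE 0.07, adjusted p = 3.21e-06), where the level fell by 36.3%. With Smarcb1 it was 0.07 (95% confidence interval -0.08 to 0.21, adjusted p = 0.362), and Smarcb1-RE exceeded SAHA cells by 0.72 (SE 0.07, adjusted p = 7.87e-07). Without control replicate 1 the change with Smarcb1 was 0.15 and passed the test (adjusted p = 0.00959), and without control replicate 2 it was 0.00 (adjusted p = 0.965).

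Hdac11 (ENSMUSG00000034245, chr6:91156665-91174692, plus strand), the single class IV gene, was near the limit of detection outside the Smarcb1-RE group. Its raw counts were 1, 9 and 5 in the controls, 8, 7 and 9 under SAHA, and 53, 39 and 49 after re-expression. The normalized levels were 0.0425, 0.380 and 0.206 CPM, then 0.347, 0.309 and 0.388 CPM, then 2.26, 1.73 and 2.11 CPM in the same order. Every Smarcb1-RE library exceeded every other library, and SAHA and control libraries overlapped. From the pooled counts, scaled for depth, the level was 9.71-fold that of control (exact 95% interval 5.69 to 17.8, counting error only) and 5.85-fold that of SAHA cells (3.78 to 9.43). The fitted log2 fold changes were 3.25 (SE 0.40, adjusted p = 8.97e-06) and 2.53 (SE 0.37, adjusted p = 4.61e-05). Since Hdac11 passed the filter through the Smarcb1-RE libraries, the fit was also made with no filter on low counts, where they were 3.22 (adjusted p = 5.15e-07) and 2.52 (adjusted p = 6.33e-06). The change with Smarcb1 rested in size on single controls, at 2.77 without control replicate 1 and 3.95 without control replicate 2, and passed the test in both cases. The SAHA to control ratio was 1.66 (0.836 to 3.4, adjusted p = 0.231 in the fit), so that a change with SAHA was not detectable at this depth. Without control replicate 2, which held the highest control count, the SAHA comparison passed the test at a log2 fold change of 1.43 (adjusted p = 0.0412). Annotated transcripts on the opposite strand overlap its exons over 96 bases (Gm14573) and 594 bases (Gm44002), and use of strand in the counting is not stated, so reads of those transcripts cannot be told apart from Hdac11.

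**Figure D2:**
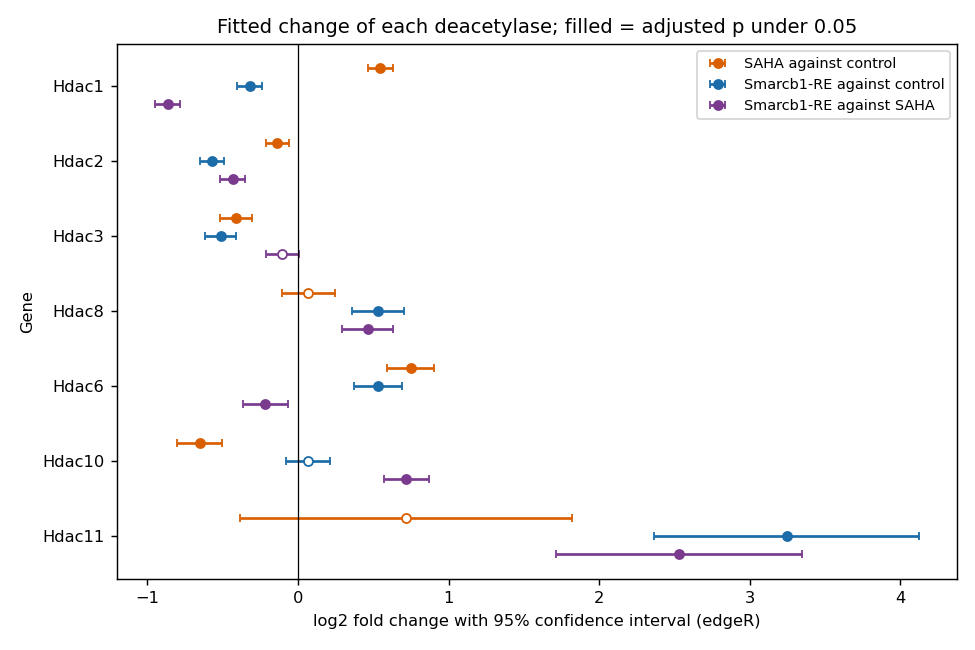
Fitted log2 fold change of each deacetylase (x axis) in the 3 comparisons, with bars for the 95% confidence interval from the edgeR fit to 9 libraries. Filled points have an adjusted p under 0.05. Hdac1 lies at 0.54 with SAHA and -0.32 with Smarcb1, Hdac6 lies to the right of 0 in both, and Hdac11 reaches 3.25 with Smarcb1 with the widest intervals.

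Promoter sequences from RefSeq (GRCm38.p6) were matched for 4 of the 7 members, Hdac2, Hdac6, Hdac8 and Hdac11. They are shown because these genes changed differently with Smarcb1, Hdac2 down and the other 3 up. Each is printed 5′ to 3′ on the strand of the gene and ends before the earliest annotated start. Capitals mark a GC box (GGGCGG) or a CCAAT box (CCAAT) on either strand.
Hdac2, chr10:36974294-36974543, plus strand: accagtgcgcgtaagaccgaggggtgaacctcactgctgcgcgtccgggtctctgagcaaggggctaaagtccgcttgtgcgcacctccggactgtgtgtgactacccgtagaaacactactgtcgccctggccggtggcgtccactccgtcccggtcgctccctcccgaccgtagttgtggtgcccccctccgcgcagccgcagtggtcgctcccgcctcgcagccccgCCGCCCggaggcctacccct
Hdac6, chrX:7947890-7948139, minus strand: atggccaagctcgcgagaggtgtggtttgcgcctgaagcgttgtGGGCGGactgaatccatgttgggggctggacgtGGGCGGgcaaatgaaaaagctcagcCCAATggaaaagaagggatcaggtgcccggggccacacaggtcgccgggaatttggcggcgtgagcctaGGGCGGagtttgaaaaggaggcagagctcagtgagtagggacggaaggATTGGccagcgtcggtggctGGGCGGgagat
Hdac8, chrX:102505360-102505408, minus strand: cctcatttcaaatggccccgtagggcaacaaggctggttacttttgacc
Hdac11, chr6:91156565-91156664, plus strand: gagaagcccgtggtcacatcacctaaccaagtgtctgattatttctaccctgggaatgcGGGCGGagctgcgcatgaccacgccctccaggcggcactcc

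Over the 250 bases before the RefSeq start, the Hdac6 promoter held 4 GC boxes and 2 CCAAT boxes. The Hdac2 promoter held 1 GC box, at position -20, and no CCAAT box, and it was the richest in CpG with 27 dinucleotides, more than 91.4% of all promoters. Hdac11 held 1 GC box and 1 CCAAT box among 17 CpG, and Hdac6 also had 17. The Hdac8 window had 6 CpG (the median of all promoters is 6) and a GC content of 48.4%. It held 2 overlapping CCAAT boxes and a TATA box (TATAAA) at -151. Only 49 bases of the Hdac8 window and 100 of the Hdac11 window are printed, because the GENCODE start lies upstream of the RefSeq start. The CCAAT and TATA boxes of Hdac8 and the CCAAT box of Hdac11 lie past that GENCODE start, outside the printed bases. Of 32851 promoters of the same length, 32.7% hold the GC box, 33.8% the CCAAT box and 12.4% the TATA box on either strand. The E-box CACGTG, the cAMP response element TGACGTCA, the ETS site CCGGAAGT and the NRF1 core CGCATGCG were not found in these 4 windows and occur in 6.02%, 1.55%, 2.88% and 1.55% of promoters. These matches describe the letters of the windows only.

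Levels of different genes can be compared only per length. Per kilobase of the exon union, Hdac1 had the highest level of the 7 in every group, with 101 ± 2.76 CPM per kb in control, 147 ± 3.73 in SAHA and 80.9 ± 1.2 in Smarcb1-RE cells (SD, n = 3). In control cells Hdac2 followed with 24.6 ± 0.297, then Hdac10 with 20.7 ± 2.20 and Hdac3 with 20.2 ± 0.419 CPM per kb. Hdac10 and Hdac3 did not differ beyond their spread, as the range of Hdac10 (19.0 to 23.2) contained that of Hdac3 (19.8 to 20.5). Hdac6 at 3.64 ± 0.150 and Hdac8 at 2.73 ± 0.287 CPM per kb came next, without overlap at this length, and Hdac11 was last with 0.0544 ± 0.0439. In control cells the Hdac1 level per kb exceeded that of 96.1% of tested genes, the Hdac6 level that of 40.1% and the Hdac11 level that of 3.59%.

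The order of the middle genes changed with treatment. With SAHA, Hdac3 (15.2 ± 0.802 CPM per kb) was above Hdac10 (13.2 ± 0.324). In Smarcb1-RE cells Hdac10 (21.7 ± 1.07) was above Hdac2 (16.6 ± 0.384), and Hdac3 followed with 14.2 ± 0.542. This order rests on the length used: with the longest protein-coding transcript as the length, Hdac3 was above Hdac2 in control cells, at 40.4 against 33.9 CPM per kb. Hdac8 was likewise above Hdac6 in control cells under both other lengths, at 5.82 against 4.20 CPM per kb with the longest transcript and 6.82 against 5.11 with the longest coding one.

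The summed level of the 7 genes was 173 ± 5.10 CPM per kb in control, 207 ± 4.66 in SAHA and 143 ± 1.12 in Smarcb1-RE cells (SD, n = 3). Hdac1 alone carried 58.4% of the sum in control, 71.1% in SAHA and 56.5% in Smarcb1-RE cells. The share of Hdac10 fell from 11.9% in control to 6.35% in SAHA and was 15.1% in Smarcb1-RE cells. Hdac6 and Hdac8 together stayed a minor part, with Hdac6 at 2.10%, 2.95% and 3.67% and Hdac8 at 1.58%, 1.38% and 2.76% in the 3 groups. These shares are a description without a test.

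**Figure D3:**
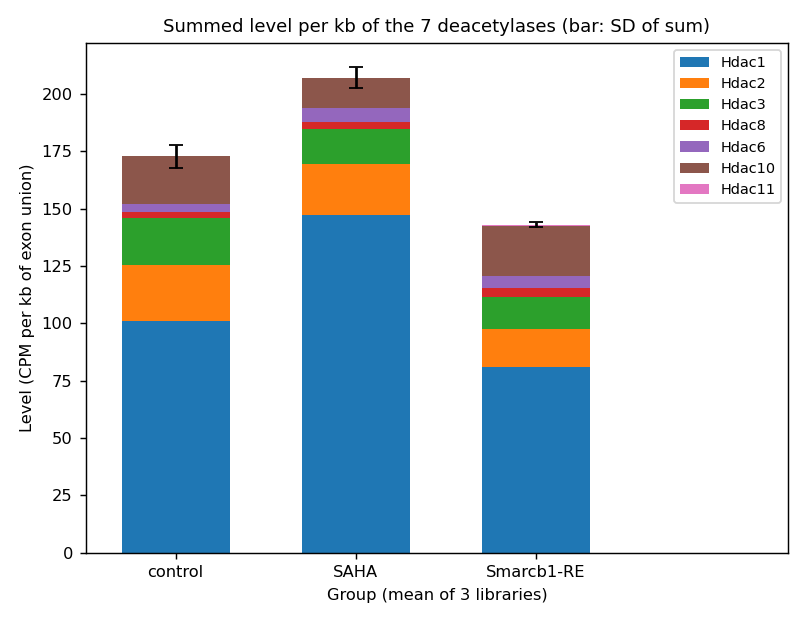
Summed level of the 7 deacetylase transcripts in CPM per kb of exon union (y axis, from 0) in each group, stacked by gene from the means of 3 libraries. Error bars give the SD of the sum. The sum is 173 in control, 207 in SAHA and 143 in Smarcb1-RE cells, and Hdac1 forms the largest block in each.

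The remaining zinc-dependent enzymes, of class IIa, are bound weakly by SAHA. Hdac7 was their most abundant transcript and matched Hdac1 per kb in control cells, at 105 ± 5.02 against 101 ± 2.76 CPM per kb, within their spread. In SAHA cells it was lower than Hdac1, at 93.8 ± 2.36, and in Smarcb1-RE cells higher, at 116 ± 1.19 CPM per kb. Hdac5 rose in both treatments (log2 fold change 1.11 with SAHA and 1.78 with Smarcb1), Hdac9 rose with SAHA (0.58) and Hdac4 with Smarcb1 (0.25). Of the 7 NAD-dependent sirtuins, which hydroxamates do not target, 4 were higher and 3 lower with SAHA, and 5 were higher and 2 lower with Smarcb1, beside 32.6% and 34.3% of all genes and 39.2% and 38.6% respectively. Sirt4 was at 1.15 and 1.09, Sirt5 at 0.40 and 0.59 and Sirt6 at 0.16 and 0.76 in the respective comparisons, each past the test. Sirt1 (-0.19 and 0.22) and Sirt3 (-0.39 and 0.81) fell with SAHA and rose with Smarcb1, Sirt7 (0.19 and -0.62) did the reverse, and Sirt2, the most abundant sirtuin, fell in both (-0.35 and -0.25).

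Hdac1, Hdac2 and Hdac3 act within complexes, whose other subunits recruit them to chromatin. Of 47 partner genes looked up, 46 were tested. With SAHA 17 were higher and 20 lower, and with Smarcb1 18 were higher and 20 lower. These shares are again near those of all tested genes given above.

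Among the 14 Sin3 subunits, 4 were higher and 6 lower with SAHA (median log2 fold change 0.02), and 3 were higher and 10 lower with Smarcb1 (median -0.34), where 32.6% and 34.3% of all genes were higher and lower with SAHA and 39.2% and 38.6% with Smarcb1. Sap30, which stabilises the Sin3 scaffold with Hdac1, rose with SAHA by 0.61 (SE 0.05, adjusted p = 5.37e-07) and fell with Smarcb1 (log2 fold change -1.12, SE 0.06, adjusted p = 2.37e-09). Arid4b had the highest log2 fold change of the list in both comparisons, 0.89 and 0.32. Sin3b, a scaffold subunit, had the lowest with SAHA, -0.33.

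NuRD couples Hdac1 and Hdac2 to a nucleosome remodeller. With SAHA 3 of its 10 genes were higher and 6 lower (median -0.18), and with Smarcb1 3 were higher and 5 lower (median -0.20). Over all tested genes, 32.6% were higher and 34.3% lower with SAHA, and 39.2% and 38.6% with Smarcb1. Mbd3, which holds the complex together, fell in both, with log2 fold changes of -0.87 (SE 0.05, adjusted p = 1.61e-08) and -0.89 (SE 0.05, adjusted p = 4.22e-09). Its relative Mbd2 changed less, at -0.13 (adjusted p = 0.0208) with SAHA and -0.02 (adjusted p = 0.734) with Smarcb1. The remodelling ATPase genes of the list were split. Chd4 rose with SAHA (0.36) and fell with Smarcb1 (-0.27), while Chd3 fell with SAHA (-0.77) and rose with Smarcb1 (0.25). Mta3 fell with SAHA (-0.23) and rose with Smarcb1 (0.35). The histone chaperones shared by Sin3 and NuRD were split, since Rbbp7 fell with Smarcb1 (-0.98, SE 0.04, adjusted p = 1.52e-10) whereas Rbbp4 was at -0.06 (adjusted p = 0.157).

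CoREST, which pairs Hdac1 or Hdac2 with the demethylase Kdm1a, had more genes higher than lower in both comparisons. With SAHA 8 of its 9 genes were higher and 1 lower (median 0.32), and with Smarcb1 7 were higher and 0 lower (median 0.45), where 2 did not pass. Hmg20b rose to 0.96 on the log2 scale with SAHA (SE 0.07, adjusted p = 1.38e-07) and to 0.45 with Smarcb1. Rcor3, a CoREST scaffold, rose most with Smarcb1 (1.10, SE 0.06, adjusted p = 3.2e-09), and Rcor2 rose least among those that passed (0.24). Of all genes 32.6% were higher and 34.3% lower with SAHA, and 39.2% and 38.6% with Smarcb1. The direction of this list was not tested as a set.

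The NCoR/SMRT complex depends on Hdac3, which fell in both treatments. Of the 6 other genes listed for it, 1 was higher and 4 lower with SAHA, and 2 were higher and 2 lower with Smarcb1. They include Cops2, which is not a core subunit of the complex. Tbl1x fell in both (-0.46 and -0.18). Ncor1 (-0.15 and 0.17) and Tbl1xr1 (-0.28 and 0.30) fell with SAHA and rose with Smarcb1, and Cops2 (0.20 and -0.54) did the opposite. Gps2 fell with SAHA (-0.22) and was at 0.08 with Smarcb1. Of 5 tested MiDAC and MIER genes, 1 was higher and 3 lower with SAHA, and 3 were higher and 2 lower with Smarcb1. Beside the counts of both lists, 32.6% of all genes were higher and 34.3% lower with SAHA, and 39.2% and 38.6% with Smarcb1. Dnttip1 (-0.32 and -0.40) and Mier2 (-0.25 and -0.17) fell in both, Mier3 (0.27 and 0.66) rose in both, Mier1 (-0.34 and 0.45) changed sides, and Mideas passed with Smarcb1 only (0.07 and 0.36).

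**Figure D4:**
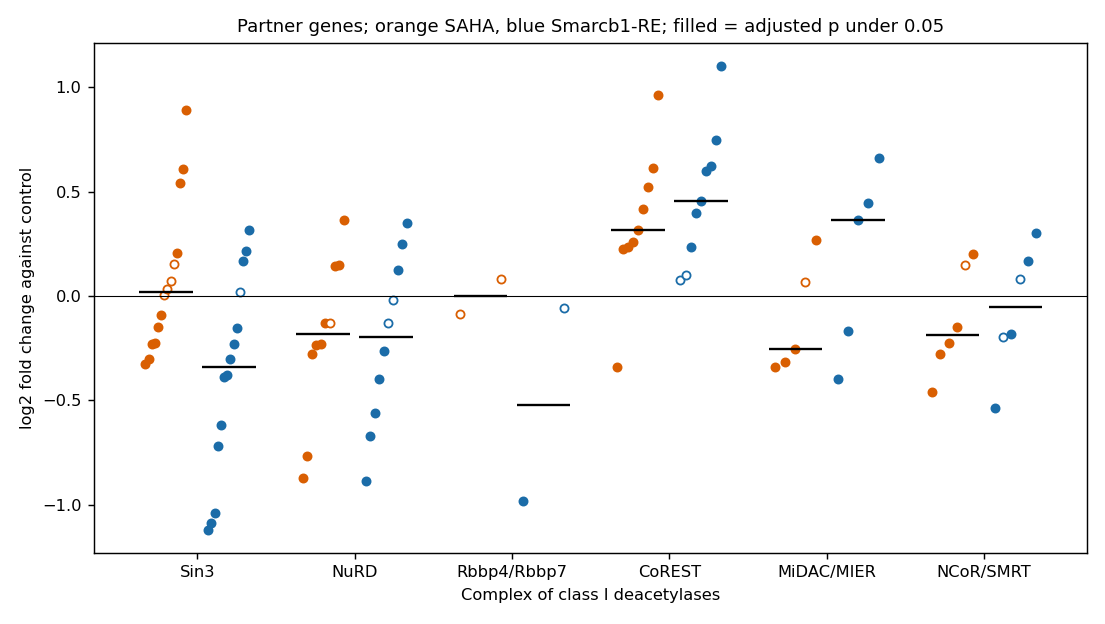
log2 fold change against control (y axis) of the 46 tested partner genes of class I deacetylases, grouped by complex (x axis), with SAHA in orange and Smarcb1-RE in blue. Filled points have an adjusted p under 0.05 and black lines are medians. CoREST genes lie mostly above 0 in both comparisons (medians 0.32 and 0.45), and Sin3 genes reach -1.12 with Smarcb1.

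The remaining lists follow the substrates of the class IIb and IV enzymes. The first holds 11 genes of polyamine enzymes and their regulators. With SAHA 4 were higher and 3 lower, and with Smarcb1 3 were higher and 8 lower (median log2 fold change -0.63). The shares of all genes were 32.6% and 34.3% with SAHA and 39.2% and 38.6% with Smarcb1. Odc1, the rate-limiting enzyme of polyamine synthesis, fell with Smarcb1 from 1896 to 558 CPM (log2 fold change -1.77, SE 0.04, adjusted p = 3.55e-12) and with SAHA by a smaller amount (-0.56), a difference between treatments of -1.21 (adjusted p = 5.87e-11). Srm, spermidine synthase, had the lowest value of the list with SAHA (-0.73). Sat1, which acetylates spermidine and spermine, rose in both (0.86 and 1.20). Hdac10 itself fell with SAHA only.

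Around Hdac6, the tubulin acetyltransferase Atat1 rose in both treatments, from 3.71 CPM in control to 6.74 with SAHA and 11 with Smarcb1 (log2 fold changes 0.86 and 1.56, adjusted p = 0.000193 and 3.98e-07). Sirt2, the other deacetylase of tubulin, fell in both (-0.35 and -0.25), from 491 CPM in control to 385 with SAHA and 413 with Smarcb1. Cttn, a cytoskeletal substrate of Hdac6, was at 0.18 and -0.95, and the ubiquitin-dependent segregase Vcp, which binds Hdac6, at -0.48 and -0.68. Sqstm1 (0.27 and -0.14) and Ubxn6 (-0.26 and 0.75) changed in opposite directions. All of these values passed the test.

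Shmt2, a mitochondrial enzyme of serine metabolism and a substrate of Hdac11, fell with SAHA (-0.74, adjusted p = 2.87e-08) and rose slightly with Smarcb1 (0.16, adjusted p = 0.00641). Il10, a cytokine gene that Hdac11 is known to repress in antigen-presenting cells, was counted 2, 1 and 5 times in the controls, 2, 0 and 2 times under SAHA, and 85, 89 and 111 times after re-expression. It was therefore at or near the limit of detection except in the cells where Hdac11 was also higher, and it passed the filter on low counts through those libraries only. Mblac2, a hydrolase that hydroxamates bind besides deacetylases, was at 0.16 with SAHA (adjusted p = 0.223) and 0.54 with Smarcb1 (adjusted p = 0.000661).

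Of the genes best known to rise under deacetylase inhibitors, Cdkn1a measured 1.96, 2.83 and 2.67 CPM in control, 4.24, 3.80 and 3.70 CPM in SAHA and 7.85, 8.32 and 7.63 CPM in Smarcb1-RE libraries. This cell cycle inhibitor thus rose with SAHA (0.65, SE 0.15, adjusted p = 0.00184) and more with Smarcb1 (1.67, SE 0.14, adjusted p = 2.2e-07), and the treated groups differed by 1.02 (adjusted p = 1.66e-05). H1f0, the linker histone H1.0 gene, measured 41.1, 39.8 and 39.4 CPM in control, 27.2, 29.5 and 31.7 CPM in SAHA and 70.7, 66.4 and 73.3 CPM in Smarcb1-RE libraries. It fell with SAHA (-0.44, SE 0.06, adjusted p = 3.07e-05) and rose with Smarcb1 (0.81, SE 0.06, adjusted p = 3.73e-08).

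The genes most alike to each member over the 9 libraries, by Pearson's r of log2 CPM among 11318 candidate genes (11319 for Hdac11) whose mean log2 CPM was 1 or higher, are a description, because the 9 points fall into the 3 groups. They were Rnh1 and Eif4e3 for Hdac1, Psmd1 and Idh3a for Hdac2, Usp4 and Rmdn2 for Hdac3, Pbx3 and Rhbdd1 for Hdac8, Sord and Smad3 for Hdac6, Bnip1 and Ppcs for Hdac10, and Tut4 and Hdac4 for Hdac11. The r values lay between 0.984 and 0.999.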

How the data were processed

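Directional single-end RNA-seq of 9 T15 libraries was used. The values deposited by the authors are estimated counts for each Ensembl gene and library, neither pooled nor scaled, and their processing notes name FastQC 0.11.8, MultiQC 1.7, Salmon 0.14.1, DESeq2 1.22.2 and GRCm38. Use of strand is not given in the sources used here. Of the identifiers, 99.3% were found in GENCODE M21, which gave names, coordinates and lengths. Counts were rounded to whole numbers and tested in R 4.3.3 with edgeR 4.0.16 (TMM factors, a filterByExpr minimum of 10 counts, quasi-likelihood F-tests in 1 fit to 9 libraries, Benjamini-Hochberg adjustment, adjusted p under 0.05). Each SE was obtained from the fold change and its F statistic. Totals of 20900424 to 24941408 put 3 counts at 0.123 to 0.133 CPM, which covers counting error only. The p-values set each group difference against the spread between replicate libraries, which for Smarcb1-RE may be libraries of 1 clone.

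The members and gene lists were chosen with earlier results of these data known. Named genes are the 7 members, Smarcb1, every gene of lists of 7 or fewer, the highest and lowest log2 fold change past the test in each longer list and comparison with control, near-identical copies, and the 2 genes most alike to each member. Some genes under this rule are not reported here. Copies were genes aligned by blastn 2.17.0 at 90% identity over 200 bases. The literal rule matched 97 genes for Hdac1 through retained introns and was narrowed, after seeing them, to protein-coding transcripts. Well expressed genes have a mean log2 CPM of 1 or higher. Alternatives were DESeq2 1.42.0, RLE factors, library totals, other filters, fits to pairs of groups, a replicate block, a 1.5-fold minimum, an adjusted p under 0.01, sums with copies, other lengths, and leaving out each library. The scripts were tested on simulated counts.

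Same-numbered libraries deviated from their group means with a mean correlation of -0.003, so no pairing by replicate number was seen in the values. This cannot show whether the libraries were prepared in pairs.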

Additional observations from a re-analysis of the deposited data

How the results depend on the processing

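Over 332 combinations of a member, a comparison and an alternative, 310 kept direction and call, 15 lost the call, 4 gained it and 3 changed sign. The sign changes were Hdac3 between treatments with library totals only (0.056), Hdac8 with SAHA without control replicate 1 (-0.0028) and Hdac10 with Smarcb1 without control replicate 2 (-0.0034), none of them called. Over the left-out controls these ranged from -0.0028 to 0.15 for Hdac8 and from -0.0034 to 0.15 for Hdac10. Library totals alone moved the median of all genes with Smarcb1 to 0.17, and 61% of calls were then higher, against 50.4%, with 62.1% against 50.6% between treatments; Hdac10 with Smarcb1 was then called at 0.23 and Hdac6 between treatments was not, at -0.06 (the cause was not tested). The latter was also lost at an adjusted p under 0.01. With the 1.5-fold minimum, 2 members were called with SAHA (Hdac6 higher, Hdac10 lower), 1 with Smarcb1 (Hdac11 higher, 0 lower) and 3 between treatments (1 lower). Hdac1 with SAHA, at 0.54, was not called under this rule. Of the 13697 tested genes, 3705, 5980 and 5382 were called in these comparisons, 64.5%, 58.7% and 54.4% of the calls higher. The replicate block left 9030, 10588 and 10137 genes called and changed no member's call. Counts of members called ranged over the single left-out libraries from 5 to 6 with SAHA, from 6 to 7 with Smarcb1 and from 5 to 7 between treatments. Control levels with the longest transcript as length were 171 for Hdac1, 33.9 for Hdac2, 22.9 for Hdac3, 5.82 for Hdac8, 4.20 for Hdac6 and 24.1 CPM per kb for Hdac10, and shares 65.2%, 13.0%, 8.74%, 2.23%, 1.60% and 9.22%. With the longest coding transcript, chosen after seeing the data, levels were 171, 33.9, 40.4, 6.82, 5.11 and 29.0 and shares 59.7%, 11.9%, 14.1%, 2.39%, 1.79% and 10.1%. Hdac11 could not be fitted with at least 10 counts in every library, nor in the separate fit of SAHA and control. Its low counts limit its precision.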
